A study of Homo sapiens with 8 samples.

Results

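The genes of the mitochondrial genome were compared between side population (SP) and non-side population (NSP) cells of the line J82. J82 is an established cell line from a human bladder cancer. All genes whose symbol starts with MT- were taken, which gave 37 of the 57820 genes of the table: 13 coding genes, 2 rRNA genes and 22 tRNA genes. The rule uses gene symbols alone. In the GRCh37 annotation they lie on a mitochondrial chromosome of 16569 bp, 28 on the plus strand and 9 on the minus strand. Of the coding genes, 12 are on the plus strand, and MT-ND6 alone is on the minus strand. The tRNA genes divide into 14 on the plus and 8 on the minus strand.

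SP cells are those that retain little Hoechst, a dye that binds DNA, when stained living cells are sorted, and NSP cells are those outside that gate. In both groups the J82 cells were grown in DMEM with 10% FBS, 7-AAD marked dead cells at the sort, and no drug or gene edit is named for either group. There were 4 SP and 4 NSP libraries, numbered 1 to 4 in each group and made with a kit that captures mRNA. The labels do not say that the 4 libraries of a group came from separate cultures or sorts, so the p-values measure the spread between these libraries, which may be technical. The libraries are of 1 cell line and of bulk RNA: more mitochondrial RNA per cell, more cells with such RNA and less RNA of other genes cannot be told apart in them. ABCB1, the drug efflux transporter that also exports Hoechst, had 35 to 57 counts in the SP and 3 to 13 in the NSP libraries, and ABCG2, the other transporter of this kind, had 0 to 4 in all 8. The keratins KRT7, KRT8 and KRT18 and the mesenchymal genes VIM and FN1 were detected in every library. KRT7 and FN1 were lower in SP cells (log2 fold changes −1.35 and −1.25, edgeR adjusted p 0.00342 and 0.000863). KRT19 and CDH2 were detected in every library and not called (log2 fold changes −0.24 and −0.03, edgeR adjusted p 0.838 and 0.970). Of the urothelial genes UPK2 had 9 to 49 counts, GATA3 1 to 8, PPARG 3 to 13, UPK1A at most 1 and UPK3A none. COL1A1 had 4 to 21. Of the markers of immune cells CD68 had 8 to 20 counts and PTPRC and CD3E none. KRT7, KRT8, KRT18, VIM, CDH2, COL1A1, UPK1A, UPK2 and CD68 overlap exons on the other strand.

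The mitochondrial genome carries a small set of subunits of the respiratory chain and of ATP synthase, together with the rRNAs and tRNAs that the organelle's own ribosomes need to translate them. Both strands are transcribed as long precursors, from which the tRNAs between the other genes are cut out, so that the messengers and rRNAs are released as separate RNAs. Every other subunit of these complexes and all of the proteins that copy, transcribe and process the mitochondrial genome are encoded in the nucleus. Copies of mitochondrial DNA have also been inserted into nuclear chromosomes, where they are annotated as pseudogenes.

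The tRNA genes were 59 to 75 bp long and the reads 50 bp, and some of their sequences are needed to follow the counts. The first 4 sequences are neighbours on the minus strand, of which MT-TC and MT-TY were among the best counted tRNA genes and MT-TA and MT-TN were almost without counts. A gap of 31 bp separates MT-TN from MT-TC (chrM:5730-5760). MT-TQ is the tRNA gene that was called, and MT-TS2 had the largest count in a library among the genes left out of the test. They are GRCh37 reference sequences in the direction of the gene, 5′ to 3′, and capitals mark the bases that a gene shares with another of the 37 genes (MT-TC with MT-TY, and MT-TQ with MT-TI on the opposite strand).
MT-TA, chrM:5587-5655, minus strand, alanine: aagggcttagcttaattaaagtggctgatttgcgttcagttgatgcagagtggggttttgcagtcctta
MT-TN, chrM:5657-5729, minus strand, asparagine: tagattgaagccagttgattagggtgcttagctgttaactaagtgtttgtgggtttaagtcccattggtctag
MT-TC, chrM:5761-5826, minus strand, cysteine: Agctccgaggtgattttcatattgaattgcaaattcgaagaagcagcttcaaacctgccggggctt
MT-TY, chrM:5826-5891, minus strand, tyrosine: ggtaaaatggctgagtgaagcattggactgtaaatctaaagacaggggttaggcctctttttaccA
MT-TQ, chrM:4329-4400, minus strand, glutamine: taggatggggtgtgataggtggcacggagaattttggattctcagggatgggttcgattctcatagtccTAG
MT-TS2, chrM:12207-12265, plus strand, serine: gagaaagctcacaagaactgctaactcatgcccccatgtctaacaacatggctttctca

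An SP library held 1431823 to 1697218 counts, and an NSP library 1489033 to 2073526. These are counts assigned to genes and not the read depth, since the study's methods give many times more raw reads per sample. Why so few reads were assigned was not tested. After a filter on low counts, 9309 genes were tested with edgeR's quasi-likelihood test, and a gene was called at a Benjamini-Hochberg adjusted p under 0.05 over all of them with a fold change over 1.3. Levels are given as CPM, counts scaled to a common TMM-normalized library size, where 1 count is worth 0.494 to 0.736 CPM. Of the 37 genes, 21 passed the filter and 16 did not. All 16 were tRNA genes, 14 of them on the plus and 2 on the minus strand, with at most 13 counts in a library.

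Among the 21 tested mitochondrial genes, 13 were called higher in SP cells and none lower. All values here and below are of counts assigned to a gene, which may hold reads from RNA of the opposite strand. The 13 were the 12 plus-strand coding genes and MT-TQ, set against a background of 1.63% of all tested genes called higher and 2.03% called lower. DESeq2 also called none lower. All 21 log2 fold changes were positive, between 0.09 and 2.01, and 17 of the genes had an unadjusted p under 0.05. The median was 1.42 over the 12 plus-strand coding genes, 0.70 over the 2 rRNA genes and 0.57 over the 6 tested tRNA genes, compared with 0.0148 over all genes tested. Of all 9309 genes tested, 4819 had a positive value, and the share with an unadjusted p under 0.05 was not counted. In 6 genes the lowest SP library exceeded the highest NSP library (MT-ND1, MT-TQ, MT-ND2, MT-ND3, MT-ND5 and MT-CYB), and 4.78% of all tested genes had such values. The count of calls depended on single libraries: 5 genes were called without NSP replicate 2, 6 without SP replicate 4, 7 without NSP replicate 3 and 8 without NSP replicate 1. MT-ND1, MT-ND2, MT-ND3, MT-ND5 and MT-CYB were called whichever library was left out.

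**Figure D1:**
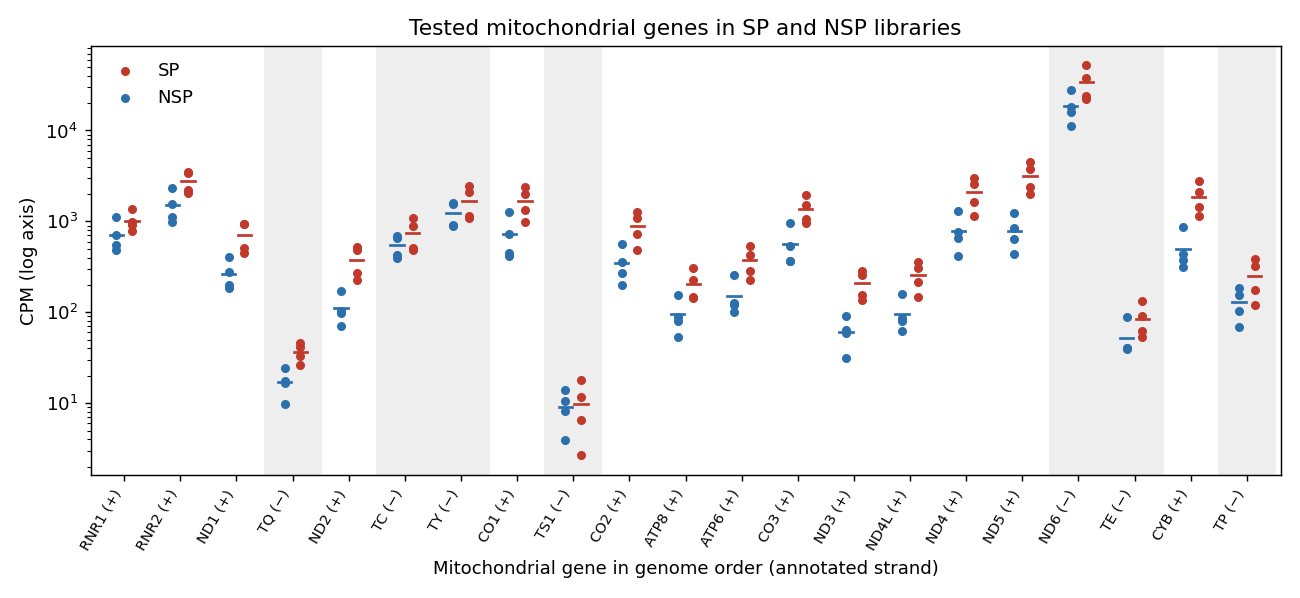
CPM (log axis) of the 21 tested mitochondrial genes in genome order, with 1 point per library (red for SP, blue for NSP, 4 each) and a line at the group mean; grey columns are genes annotated on the minus strand. MT-ND6 stands above every other gene, and the SP points of MT-ND5 and MT-CYB lie clear of the NSP points, whereas those of MT-TC, MT-TY and MT-TS1 overlap them.

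The labels do not state pairs, and the main fit uses none. Deviations of SP and NSP libraries of equal number from their group means correlated at 0.203 to 0.380. Libraries of unequal number were not compared in this way. Pairs by number were used in an alternative fit and in descriptions. With the replicate number as a block, edgeR called 20 of the 21 genes higher and none lower, all but MT-TS1, against 5.89% of all genes called higher in that fit. The same 20 genes were higher in the SP library of all 4 pairs, and the share of all tested genes with this pattern was not counted. The 7 genes called with the block alone were MT-RNR1, MT-RNR2, MT-ND6, MT-TC, MT-TY, MT-TE and MT-TP. The block fit gave far smaller adjusted p than the main fit, such as 2.19e-25 against 0.00187 for MT-ND5 (both edgeR). An exact test over 4 pairs alone cannot go below p = 0.125. The size of the block values therefore rests on edgeR's model of the spread.

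Complex I, the NADH dehydrogenase that passes electrons into the chain, takes 7 of its subunits from the mitochondrial genome, and 6 of them are on the plus strand. All 6 were called higher in SP cells, and their log2 fold changes had a median of 1.59. MT-ND5 had the largest log2 fold change of the 21 tested genes. Its CPM was 3791, 2007, 2396 and 4499.8 in SP replicates 1 to 4 and 639, 437, 847 and 1242 in NSP replicates 1 to 4. The lowest SP value was thus above the highest NSP value. The means were 3173 ± 1169.8 and 791 ± 344 (SD, n = 4), and the log2 fold change was 2.01 ± 0.30 (SE), with an adjusted p of 0.00187. This and every adjusted p given for a gene, unless DESeq2 is named, is edgeR's, with Benjamini-Hochberg adjustment over all tested genes.

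MT-ND3 and MT-ND2, other membrane subunits of complex I, followed with nearly equal changes. MT-ND3 had 259, 154, 135 and 286 CPM in the SP and 63.8, 31.1, 59.3 and 91.3 in the NSP libraries (log2 fold change 1.77 ± 0.29 SE, adjusted p = 0.00337). MT-ND2 had 490.0, 229, 268 and 517 CPM in the SP and 104, 71.1, 99.5 and 171 in the NSP libraries (log2 fold change 1.76 ± 0.28 SE, adjusted p = 0.00332). Neither gene had overlapping groups, although the distance from the lowest SP to the highest NSP library was short compared with the spread within SP cells. MT-ND1, the first coding gene after the rRNAs, had 932, 451, 511 and 945 CPM in the SP and 277, 186, 201 and 401 in the NSP libraries (log2 fold change 1.42 ± 0.27 SE, adjusted p = 0.0085).

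MT-ND4L and MT-ND4 overlap by 7 bases on the same strand and gave equal log2 fold changes of 1.42. MT-ND4L averaged 258 ± 95.2 CPM in SP and 96.7 ± 42.3 in NSP cells (SD, n = 4; SE of the log2 fold change 0.29, adjusted p = 0.0118). MT-ND4 averaged 2092 ± 851 and 781 ± 375 CPM (SD, n = 4; SE 0.32, adjusted p = 0.0206). In both genes SP replicate 2 lay below NSP replicate 4, at 148 against 158 CPM in MT-ND4L and 1137 against 1301 in MT-ND4. DESeq2 gave MT-ND4 an adjusted p of 0.0500281, just past the threshold. The edgeR call of MT-ND4 was lost without SP replicate 4, NSP replicate 1, NSP replicate 2 or NSP replicate 3, with a lowest log2 fold change of 1.20, and that of MT-ND4L without NSP replicate 2.

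Complex III, the cytochrome bc1 complex, has 1 mitochondrially encoded subunit, cytochrome b, the product of MT-CYB. It had 2132, 1133, 1433 and 2798 CPM in the SP and 436, 318, 381 and 866 in the NSP libraries. Every SP library was above every NSP library, and the log2 fold change of 1.91 ± 0.31 (SE, adjusted p = 0.00332) was next to that of MT-ND5 in size. Within pairs of equal number the log2 ratio was 1.69 to 2.29.

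Complex IV, the cytochrome c oxidase that reduces oxygen, holds the 3 mitochondrially encoded subunits that form its catalytic core. All 3 were higher in SP cells, with log2 fold changes of 1.22 ± 0.32 for MT-CO1, 1.36 ± 0.30 for MT-CO2 and 1.296 ± 0.29 for MT-CO3 (SE; adjusted p 0.0473, 0.0202 and 0.0215). MT-CO1 had 2005, 991, 1318 and 2372 CPM in the SP and 735, 414, 454 and 1272 in the NSP libraries, where NSP replicate 4 was above SP replicate 2. MT-CO2 averaged 892 ± 353 and 347 ± 157 CPM, and MT-CO3 averaged 1373 ± 462 and 559 ± 284 CPM in SP and NSP cells (SD, n = 4). The groups overlapped in all 3 genes. All 3 lost the call without SP replicate 4, NSP replicate 2 or NSP replicate 3, MT-CO1 and MT-CO3 also without NSP replicate 1, and MT-CO1 without SP replicate 1. MT-CO1 was not called by DESeq2 either (adjusted p = 0.174), nor by edgeR among genes with at least 10 counts in every library (adjusted p = 0.0515).

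ATP synthase, which uses the proton gradient of the chain, has 2 mitochondrially encoded subunits of its membrane part, whose genes overlap by 46 bases on the same strand. MT-ATP6 averaged 372 ± 141 CPM in SP and 151 ± 71.1 in NSP cells (SD, n = 4), with a log2 fold change of 1.304 ± 0.29 (SE, adjusted p = 0.0200). MT-ATP8 averaged 207 ± 79.0 and 95.0 ± 43.6 CPM (SD, n = 4), with a log2 fold change of 1.13 ± 0.29 (SE, adjusted p = 0.0429), the smallest among the plus-strand coding genes. Both genes were called, and their groups overlapped. Both lost the call without SP replicate 4, NSP replicate 1, NSP replicate 2 or NSP replicate 3, and MT-ATP8 also without SP replicate 1.

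**Figure D2:**
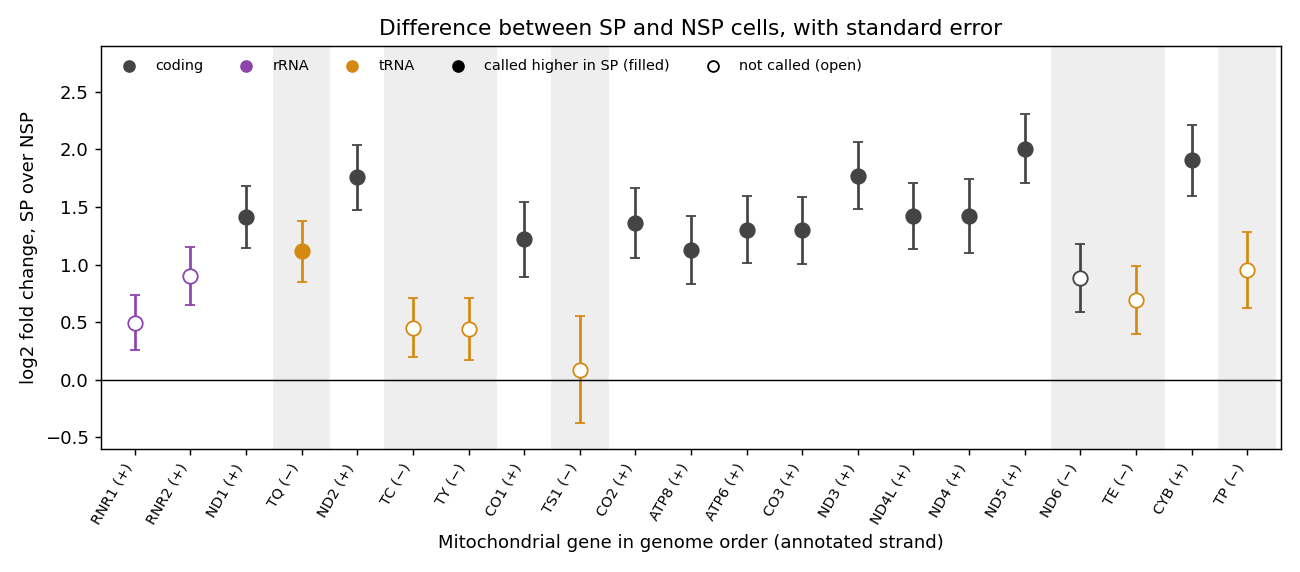
log2 fold change of SP over NSP cells (points) with its standard error (bars) for the 21 tested mitochondrial genes in genome order; filled points were called higher by edgeR and grey columns mark the minus strand. The 12 plus-strand coding genes lie between 1.13 and 2.01 and MT-TQ at 1.11, while the other 8 genes lie between 0.09 and 0.95 with open points.

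MT-ND6, the complex I subunit encoded on the opposite strand, was the most counted of the 37 genes by far, with 64.6% of all their counts. Its CPM was 37617, 21929, 23882 and 51969.5 in the SP and 15992, 11323, 18349 and 27793 in the NSP libraries. SP replicates 2 and 3 thus lay below NSP replicate 4. The log2 fold change of 0.88 ± 0.29 (SE) was not called (adjusted p = 0.121). With the replicate block it was 0.87 and was called (adjusted p = 8.56e-07), as it was without NSP replicate 4, at 1.14 (adjusted p = 0.0398).

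Per length, the counts were turned against the plus strand in all 8 libraries. Over all libraries together, MT-ND6 had 612556 counts per kb and the plus-strand coding genes had 2844 (MT-ND2) to 15142 (MT-CO3). MT-TY and MT-TC, on the minus strand, had 280682 and 122682 counts per kb, and MT-TP had 34279. The same was seen in the nucleus: in 595 pairs in which the exons of a long noncoding RNA run opposite to those of a protein-coding gene, the protein-coding gene had 14.6% to 16.4% of the counts of the pairs in SP and 12.9% to 14.9% in NSP libraries. The strand setting of the counting is not given in the sources used here, and for each of the 37 genes reads from its own RNA and reads from RNA of the opposite strand cannot be told apart. The gene names, also those of the complexes above, therefore stand for the counts assigned to the genes.

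The plus-strand coding genes had a larger part of the coding counts in SP cells. Their share was 29.6%, 26.9%, 29.8% and 26.6% in SP replicates 1 to 4 and between 16.4% (replicate 3) and 21.1% (replicate 4) in the NSP libraries, so that the groups did not overlap. Expressed per kb, MT-ND6 had 48.8 to 57.1 times the counts of the plus-strand coding genes in SP and 77.3 to 105.3 times in NSP libraries. The share of the protein-coding genes in the nuclear pairs was higher in the SP library of each pair of equal number as well, and its ranges overlapped. Its part in the mitochondrial difference was not tested.

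Ratios of neighbouring genes within a library do not depend on library size. MT-ND5 lies directly before MT-ND6 and MT-CYB follows shortly after it, both on the opposite strand to MT-ND6. The log2 ratio of MT-ND5 to MT-ND6 counts was −3.31, −3.45, −3.32 and −3.53 in the SP and −4.64, −4.69, −4.44 and −4.48 in the NSP libraries. The mean difference was 1.16 on the log2 scale with SDs of 0.11 and 0.12 (exact two-sided permutation test, p = 0.0286, the smallest that 4 libraries against 4 can give; 0.0429 after Benjamini-Hochberg adjustment over the 3 ratios tested). For MT-CYB to MT-ND6 the log2 ratio was −4.27 to −4.06 in the SP and −5.59 to −5.00 in the NSP libraries, with a mean difference of 1.06 (exact permutation test, p = 0.0286, adjusted 0.0429). Both ratios were higher in the SP library of all 4 pairs, where an exact test over the pairs gives p = 0.125 and cannot go lower. MT-ND5 and MT-CYB also had the largest log2 fold changes of the tested mitochondrial genes (2.01 and 1.91). They were chosen with earlier results of these data known, so the tests of their ratios are not independent of those results. Ratios of the other plus-strand coding genes to MT-ND6 were not tested.

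The ratio of MT-RNR2, the larger rRNA, to MT-ND6 did not separate the groups, although MT-RNR2 is also on the plus strand. Its log2 value was −3.46, −3.43, −3.41 and −3.91 in the SP and −3.35, −3.51, −4.03 and −3.59 in the NSP libraries. The groups overlapped, and the mean difference of 0.07 was smaller than the SDs of 0.24 and 0.29 (exact permutation test, p = 0.6). Without NSP replicate 3 it was −0.068.

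**Figure D3:**
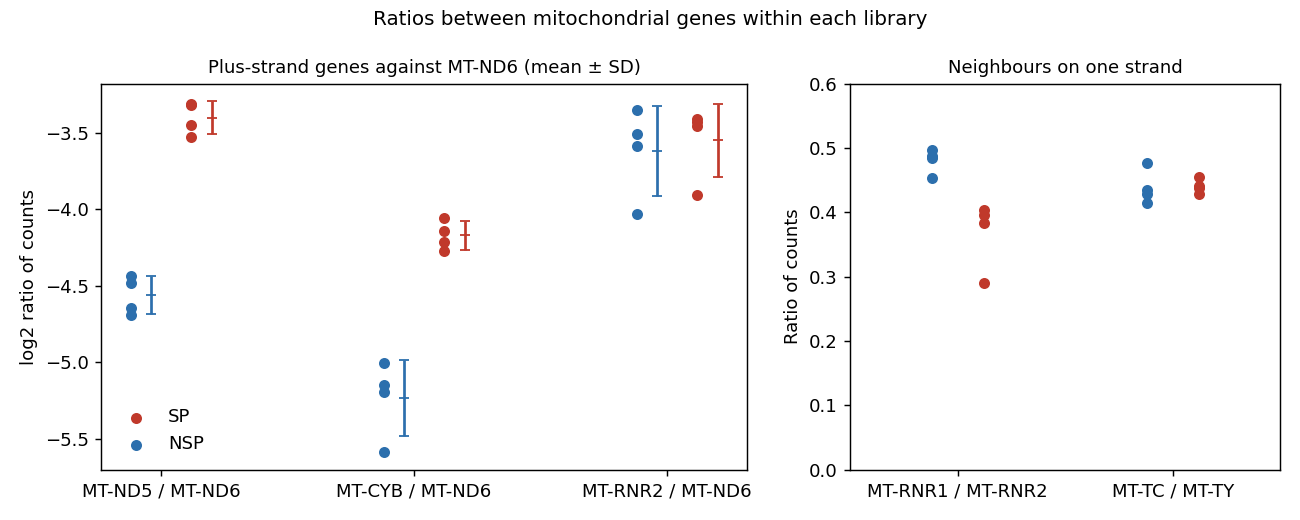
Left, log2 ratio of the counts of 3 plus-strand genes to those of MT-ND6, with 1 point per library (4 SP in red, 4 NSP in blue) and bars for the mean ± SD; right, plain ratios of counts between neighbours on the same strand. The ratios with MT-ND5 and MT-CYB separate the groups, the ratio with MT-RNR2 does not, and on the right MT-RNR1 over MT-RNR2 lies lower in SP libraries while MT-TC over MT-TY overlaps.

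The rRNA genes had smaller log2 fold changes than the coding genes of their strand, and neither was called. MT-RNR2 had 3428, 2037, 2242 and 3455 CPM in the SP and 1566, 992, 1119 and 2310.0 in the NSP libraries (log2 fold change 0.90 ± 0.25 SE, adjusted p = 0.0617). MT-RNR1, the rRNA of the small ribosomal subunit, had 992, 782, 904 and 1368 CPM in the SP and 710.1, 484, 557 and 1119 in the NSP libraries (log2 fold change 0.50 ± 0.24 SE, adjusted p = 0.314). In both, NSP replicate 4 was above 2 or more of the SP libraries. MT-RNR2 lay close to the threshold and was called in 6 of 17 alternative settings. These were DESeq2 (adjusted p = 0.0244), limma voom, total counts only, no filter on low counts, the replicate block and leaving out NSP replicate 4. With the replicate block both rRNA genes were called (log2 fold changes 0.94 and 0.54). The ratio of MT-RNR1 to MT-RNR2 counts was 0.289 to 0.403 in SP and 0.453 to 0.497 in NSP libraries, without overlap. This ratio was not among those fixed for a test and is given as a description.

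The genes of the tRNAs, which carry the amino acids to the mitochondrial ribosome, divided by strand in their counts. The library kit captures mRNA, and which RNAs gave the counts on the tRNA and rRNA genes was not tested. Over the 14 tRNA genes on the plus strand there were 210 counts in the 4 SP and 49 in the 4 NSP libraries. A single SP library had 39 to 67 of them and an NSP library 7 to 14. Of these 14 genes, 12 had a count, and 11 had more counts over the SP than over the NSP libraries; MT-TV, with 3 counts in all, was the exception. None passed the filter. MT-TS2 had 13, 6, 12 and 10 counts in the SP and 3, 2, 4 and 1 in the NSP libraries. When all genes with a count were tested, 5 of them were called higher: MT-TL1, MT-TR, MT-TH, MT-TS2 and MT-TT, with 19 to 41 counts over the SP and 1 to 10 over the NSP libraries. In that fit 1.15% of all genes were called higher and 1.45% lower. It was less strict for the mitochondrial genes of the main test, of which it called 17 where the main fit called 13. For MT-RNR2 it gave an adjusted p of 5.12e-05 against 0.0617 (both edgeR). Its calls on few counts are therefore not comparable with those of the main fit. The 5 tRNA genes were named after their values were seen.

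MT-TQ, the tRNA for glutamine, was the called tRNA gene. It had 63, 49, 49 and 57 counts in the SP and 33, 20, 26 and 35 in the NSP libraries, with no overlap. The means were 36.7 ± 8.59 and 17.1 ± 5.86 CPM (SD, n = 4) and the log2 fold change was 1.11 ± 0.27 (SE, adjusted p = 0.0287). The call was lost when any library other than SP replicate 3 or NSP replicate 4 was left out, with log2 fold changes of 0.91 to 1.16. All 50-base windows of MT-TQ also occur without a mismatch on chromosome 1, so that no read of this length from inside the gene can be placed by its sequence alone.

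The other tested tRNA genes, all on the minus strand, were not called. MT-TY and MT-TC are neighbours that share 1 base, and their ratio was nearly fixed, at 0.429 to 0.455 in SP and 0.415 to 0.477 in NSP libraries. MT-TY averaged 1696 ± 694 and 1249.7 ± 394 CPM and MT-TC averaged 743 ± 294 and 543 ± 155 CPM in SP and NSP cells (SD, n = 4), with log2 fold changes of 0.44 ± 0.27 and 0.45 ± 0.25 (SE; adjusted p 0.451 and 0.409). MT-TP, next to the control region, had 383, 174, 119.7 and 322 CPM in the SP and 155, 104, 68.9 and 187 in the NSP libraries (log2 fold change 0.95 ± 0.33 SE, adjusted p = 0.135), and was called without SP replicate 3 at 1.19 (adjusted p = 0.0417). In MT-TE, which lies between MT-ND6 and MT-CYB, the NSP libraries had 41.0, 39.5, 40.8 and 88.5 CPM, with replicate 4 far from the rest, and the SP libraries 90.1, 53.6, 61.7 and 132 (log2 fold change 0.69 ± 0.30 SE, adjusted p = 0.250). These 4 genes were called with the replicate block, at log2 fold changes of 0.40 to 0.92. MT-TS1 had the smallest value of all, with 25, 4, 12 and 16 counts in the SP and 20, 8, 13 and 20 in the NSP libraries (log2 fold change 0.09 ± 0.47 SE, adjusted p = 0.953).

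MT-TW, MT-TA and MT-TK had no count in any library, and MT-TN had 1. A count of 0 allows up to 3 counts over the 8 libraries, or 0.226 CPM of their summed totals, for counting error only. In each of these 4 genes all 50-base windows occur without a mismatch on chromosome 1. MT-TC, on the same strand 31 bp beyond MT-TN, had such copies for 64.7% of its windows and MT-TY for 11.8%, and these had 731 to 1470 and 1606 to 3361 counts per SP library. The relation was not uniform: MT-TQ and MT-TS1, also copied in full on chromosome 1, and MT-TE, copied in full elsewhere in the nuclear genome, had counts in every library. How the authors treated reads that match several places is not given in the sources used here.

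**Figure D4:**
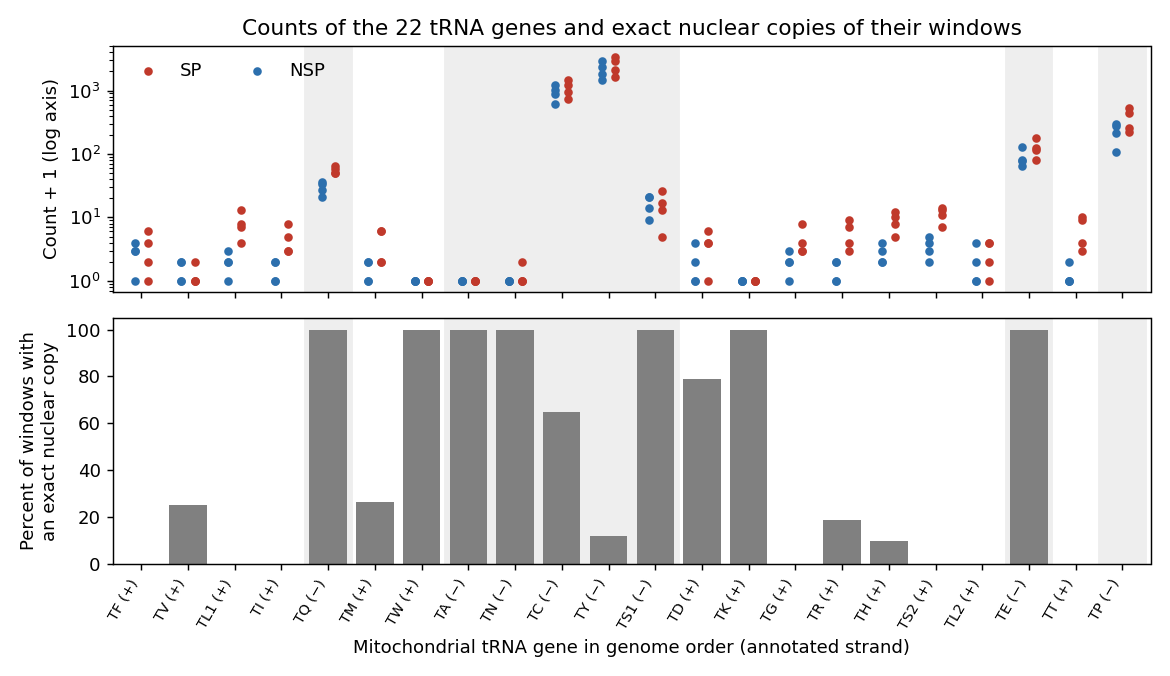
Top, counts per library of the 22 tRNA genes in genome order (count + 1 on a log axis, 4 SP libraries in red and 4 NSP in blue); bottom, percent of each gene's 50-base windows that occur without a mismatch in the nuclear genome; grey columns mark the minus strand. MT-TW, MT-TA, MT-TN and MT-TK, all at 100%, have 0 or 1 count, MT-TQ, MT-TS1 and MT-TE have counts at 100%, and the plus-strand genes stay at 13 counts or fewer.

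The coding genes differed in how much of them is copied exactly in the nucleus. MT-ND3 and MT-ND4L had no copied window, MT-CYB had 1.65%, MT-ND4 3.54%, MT-ND5 4.76% and MT-ATP8 8.23%. The largest shares were 50.6% in MT-CO1, 48.3% in MT-ATP6 and 43.6% in MT-ND2. Over the 12 plus-strand coding genes the correlation of this share with the log2 fold change was r = −0.41 and rho = −0.60. For the gene's place along the genome it was r = 0.41 and rho = 0.55, and for gene length r = 0.39 and rho = 0.34. The level per kb in NSP cells gave r = −0.34 and rho = −0.45, and the GC content r = −0.003 and rho = −0.056. These are descriptions across 12 genes of the same libraries, which are not independent. MT-ND2 and MT-ND3 had nearly the same log2 fold change with 43.6% and none of their windows copied.

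The annotated nuclear copies that could be tested had counts in a narrow proportion to their mitochondrial counterparts, except for MTCO3P12. Of 394 genes of this kind, 98 had a count and 4 were tested, of which 2 were called higher and none lower (1.63% and 2.03% of all tested genes). MTND4P12 had 83 to 207 counts in SP and 41 to 84 in NSP libraries (log2 fold change 1.49 ± 0.33 SE, adjusted p = 0.0200), which was 3.96% to 5.11% of the counts of MT-ND4 in the 8 libraries. MTCO1P12 had 59 to 110 counts in SP and 21 to 58 in NSP libraries (log2 fold change 1.296 ± 0.30 SE, adjusted p = 0.0239) and 2.95% to 4.29% of those of MT-CO1. Without SP replicate 4 or NSP replicate 2 neither was called, and without NSP replicate 3 only 1 was. MTND6P4 held 33874 of the 38164 counts on nuclear copies and followed MT-ND6 at 10.0% to 11.2% in every library (log2 fold change 0.85 ± 0.30 SE, adjusted p = 0.144). MTCO3P12 varied more, at 16.8% to 20.5% of MT-CO3 in SP and 21.8% to 30.9% in NSP libraries (log2 fold change 0.78 ± 0.33 SE, adjusted p = 0.242). Reads from a copy and from the mitochondrial gene cannot be told apart where their sequences are equal. With the replicate block all 4 were called higher (5.89% of all tested genes in that fit).

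Together, the 37 genes took 5.89%, 3.46%, 4.25% and 7.57% of the counts in SP replicates 1 to 4 and 2.37%, 1.65%, 2.38% and 4.01% in NSP replicates 1 to 4. The means were 5.29% ± 1.82 and 2.61% ± 0.997 (SD, n = 4). The groups overlapped, since NSP replicate 4 was above SP replicate 2, and within pairs of equal number the SP share was 1.78 to 2.48 times the NSP share. SP replicate 4 and NSP replicate 4 had the highest share of their groups and replicate 2 the lowest in both. The plus-strand coding genes took 1.302% ± 0.435 of the library in SP and 0.431% ± 0.203 in NSP cells (SD, n = 4), without overlap. MT-ND6 made up 61.2% to 65.2% of the mitochondrial counts in SP and 64.1% to 73.1% in NSP libraries, and the minus-strand tRNA genes 4.78% to 5.74% and 5.77% to 9.81%.

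**Figure D5:**
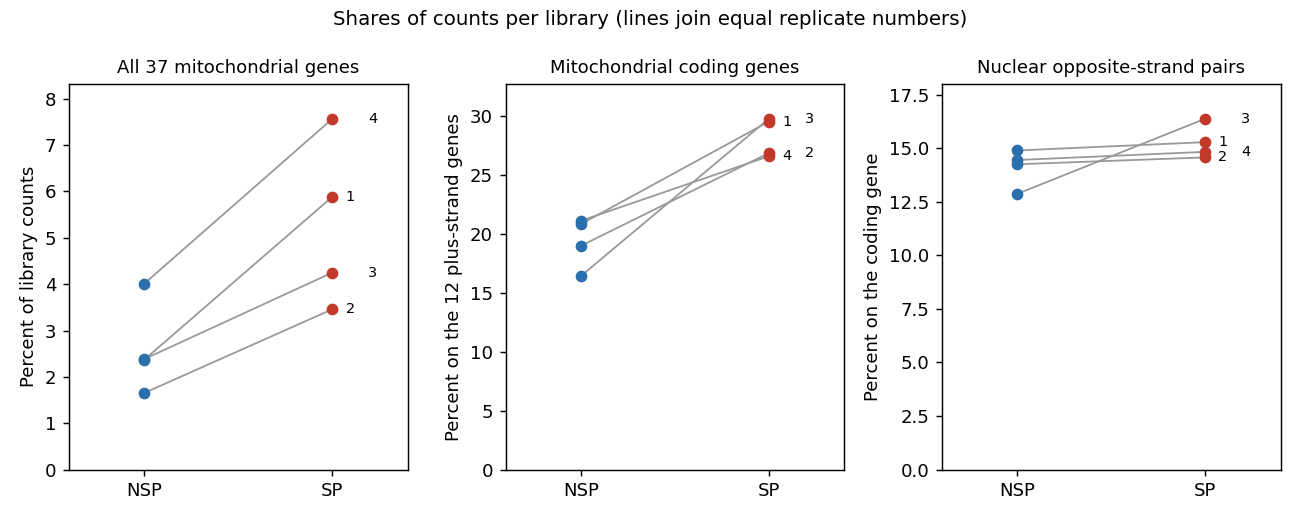
Percent of counts per library in NSP (blue) and SP cells (red), with lines joining libraries of equal replicate number: the 37 mitochondrial genes in the library, the 12 plus-strand genes among the 13 mitochondrial coding genes, and the protein-coding genes in the 595 nuclear opposite-strand pairs. All lines rise; the groups are separate in the middle panel (16.4% to 21.1% against 26.6% to 29.8%) and overlap in the others.

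The nuclear genes that serve the mitochondrial genome were compared as a list. Of 43 genes for its replication, transcription, RNA processing and regulation, 22 were tested and none was called in either direction by edgeR or DESeq2, a count near the 1.63% and 2.03% of all genes called by edgeR. At an unadjusted p under 0.05 none was higher and 1 was lower, and the share of all tested genes at that level was not counted. With the replicate block POLG alone was called, lower in SP cells (log2 fold change −0.38, adjusted p = 0.0462), where 7.00% of all genes were called lower. The median log2 fold change of the list was 0.12. The 3 with the highest CPM were ESRRA, a nuclear receptor that drives mitochondrial genes, at −0.25 ± 0.15, POLG, the mitochondrial DNA polymerase, at −0.37 ± 0.17, and SLIRP, which stabilizes mitochondrial messengers, at 0.05 ± 0.16 (log2 fold change ± SE; adjusted p 0.431, 0.292 and 0.910). All 3 are among the 11 of the 22 tested genes that overlap exons on the other strand, compared with 5043 of all 9309 genes tested.

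The nuclear subunits of the oxidative phosphorylation complexes were compared in the same way. Of 78 genes 61 were tested and none was called in either direction by edgeR, again near the 1.63% and 2.03% of all genes. The median log2 fold change was 0.30. Of the 61, 50 had a positive value, compared with 4819 of all 9309 genes. An unadjusted p under 0.05 was found in 14, all of these higher in SP cells. The share of all tested genes at that level was not counted, so the 14 cannot be weighed against it. DESeq2 called ATP5F1B higher (1.28% of all genes). With the replicate block 5 were called higher (5.89% of all genes), namely ATP5F1B, COX5B, NDUFA1, NDUFB9 and SDHB, which are named from these calls. ATP5F1B, the catalytic subunit of ATP synthase, had 374 to 495 counts in SP and 290 to 413 in NSP libraries (log2 fold change 0.49 ± 0.15 SE, adjusted p = 0.0777). CYC1, the cytochrome c1 of complex III and partner of cytochrome b, had a log2 fold change of 0.33 ± 0.15 (SE, adjusted p = 0.280), and NDUFA3, an accessory subunit of complex I, one of −0.23 ± 0.15 (SE, adjusted p = 0.482). NDUFA3 is among the 21 of the 61 tested genes that overlap exons on the other strand, and ATP5F1B and CYC1 are not. The limit on strand given above for the mitochondrial genes holds for nuclear genes with such an overlap too. Whether it also holds for those without one was not tested. The difference between the nuclear and the mitochondrially encoded subunits was not tested.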

How the data were processed

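Per the labels and the study's methods, the authors made mRNA libraries (KAPA mRNA HyperPrep), sequenced single-end reads of 50 bp, used STAR for alignment to hg19 and deposited raw counts per gene of gencode version 19 from featureCounts (Subread). Versions, strand and multi-mapping settings and the mitochondrial reference are not given in the sources used here. Symbols and positions came from a GENCODE annotation on GRCh37 (55538 of 57820 genes). For the tests, edgeR 4.0.16 (R 4.3.3) was run on the deposited counts of all genes (TMM, filterByExpr with a minimum count of 10 and total of 15, glmQLFit, glmQLFTest, no covariate), after a test on simulated data. The standard error is the log2 fold change divided by the square root of F. Alternatives were other normalizations, DESeq2 1.42.0, limma voom 3.58.1, other filters, the replicate block and leaving out each library. Ratios used a pseudocount of 1 and exact permutation tests (scipy 1.17.1). Nuclear copies are 50-base windows of a gene found exactly in the nuclear GRCh37 sequence. Nuclear pairs have at least 50% of the lncRNA exon length in the exons of the protein-coding gene (bedtools 2.31.1) and at least 100 counts.

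Deviations of same-numbered SP and NSP libraries from their group means correlated at 0.380, 0.203, 0.322 and 0.321 for numbers 1 to 4. Replicates differed beyond sampling noise (chi-square per degree of freedom 5.70 to 13.2), so none was merged. The named genes are all coding and rRNA genes, the tested tRNA genes and, of each nuclear list, the called genes and the 3 with the highest CPM. Untested tRNA genes and genes called only by an alternative were named after their values were seen. The genes and lists were chosen with earlier results of these data known.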

Additional observations from a re-analysis of the deposited data

Results flagged for a closer look

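Among 50 groups of 4 libraries checked (each tested gene and each ratio in SP and in NSP cells, and the share of counts on the 37 genes), 2 held a library far from the rest, where chance gives about 1 in 20. In MT-TE the highest NSP library, replicate 4, was separated from the next by 0.956 of the range of the group on the log2(CPM + 1) scale. In the log2 ratio of MT-RNR2 to MT-ND6 counts the lowest SP library, replicate 4, was separated from the next by 0.913 of the range. Without SP replicate 4 the difference of that ratio between SP and NSP cells was 0.19 (exact permutation test, p = 0.343), and without NSP replicate 4 the log2 fold change of MT-TE was 1.05 (adjusted p = 0.0465, edgeR).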

How the results depend on the processing

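At 1431823 to 2073526 counts per library, the tRNA genes of the plus strand were too thinly counted for the main test, and 4 libraries a group leave exact tests at p = 0.0286 or above. The 13 mitochondrial genes called higher became 22 with no filter on low counts, of which 17 were among the 21 tested genes, and 20 with the replicate block. Leaving out 1 library gave 5 (without NSP replicate 2) to 17 (without NSP replicate 4), and the other settings 12 to 14. None was called lower in any setting. The median log2 fold change of the 12 plus-strand coding genes was 1.20 to 1.72 over all settings. MT-TS1 was −0.38 without SP replicate 1, −0.03 without SP replicate 4 and −0.19 without NSP replicate 2, reached 0.39 without SP replicate 2, and was not called in any setting. The nuclear copies called higher were 5 with no filter, 4 with the replicate block and 0 to 4 with 1 library left out. Of the nuclear oxidative phosphorylation subunits, 1 was called higher with total counts only, with DESeq2 and with no filter, and 5 with the replicate block, which also called 1 gene of mitochondrial gene expression lower. The difference in log2 ratio to MT-ND6 was 1.16 for MT-ND5 and 1.06 for MT-CYB over pairs (replicate block, exact sign-flip test, p = 0.125, the smallest possible), 1.12 to 1.21 and 0.945 to 1.14 with 1 library left out (p = 0.0571, the smallest for 4 against 3), and for MT-RNR2 −0.068 to 0.19. The cause of these changes was not tested.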
